A study of Bos taurus
Mus musculus and Bos taurus and Mus musculus with 5 samples.

Results

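The bovine transcripts of heterokaryons sampled 24 h after fusion were compared with those of unfused bovine fetal fibroblasts (bFF), gene by gene. A heterokaryon is a fused cell in which the nuclei of both parents remain separate, here a bovine fibroblast nucleus beside the nucleus of a mouse embryonic stem cell (mESC). Genes entered the comparison when they reached 10 RPM (reads scaled to a common total of bovine reads in each library) in at least 1 of the 2 libraries. By this rule 7191 of the 13923 listed bovine genes were compared, and 10284 had any reads in either library. The comparison addresses how the transcripts of a somatic nucleus stand 1 day after it comes to share the cytoplasm of a stem cell.

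The series also sampled heterokaryons at 48 and 72 h and unfused mESC, with 1 library of 200 cells, sorted by imaging and flow cytometry, for each of the 5 groups. The fibroblasts came from 1 male fetus of about gestation day 60 and unknown genetic background, and the bFF control was grown in medium with 10% fetal bovine serum at 38.5 °C. Mouse stem cells of the C57BL/6 line were grown on irradiated mouse embryonic fibroblasts at 37 °C, in medium with 15% serum, 1500 U/ml of ESGRO (leukaemia inhibitory factor), 1 µM PD0325901 (a MEK inhibitor) and 3 µM CHIR99021 (a GSK3 inhibitor). Heterokaryons were made by 4 h of co-culture and 2 min of polyethylene glycol with dimethyl sulfoxide, and were then kept at 37 °C in the same serum and ESGRO without both inhibitors. Fusion therefore cannot be told apart from the change of medium, the lower temperature, the polyethylene glycol or the presence of mouse cells, which all separate the 24 h library from bFF. With 1 library a side no difference below has a replicate check or a test. Differences are described by size, and a gene is called higher or lower when log2 of (RPM + 1) at 24 h over (RPM + 1) in bFF is at least 2 or at most -2, a 4-fold change.

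A fibroblast makes the collagen-rich matrix of connective tissue, senses platelet-derived and fibroblast growth factors, and expresses inflammatory chemokines when NF-kB is activated. A stem cell factor such as OCT4 can act on the somatic genome in the shared cytoplasm of a heterokaryon without cell division, which is why such fusions are used to study early reprogramming. Glycolysis is high in pluripotent cells and is also driven by the low-oxygen factor HIF1, whereas sterol synthesis genes are driven by SREBP2 when cells are short of cholesterol.

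Bovine reads numbered 2634269 in bFF and 982769 in the 24 h heterokaryons, so that 10 RPM stood for 26.3 and 9.83 reads. All intervals are exact, at 95%. They cover counting error alone, since PCR copies of 1 molecule are counted as separate reads. Of the 24 h reads assigned to a species, 28.8% were bovine (binomial interval 28.77 to 28.87). Fewer bovine transcripts per heterokaryon and more mouse transcripts cannot be told apart in this share, and in the pooled cells of a library a changed share of cells cannot be told apart from a changed amount of RNA per cell. Markers of both labelled cell types were present. All 16 fibroblast markers had bovine reads in both libraries, with a summed level of 39860 RPM in bFF and 20256 at 24 h, and all 10 stem cell markers had mouse reads at 24 h.

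Between the 2 libraries 307 genes were called higher at 24 h (4.27% of those compared) and 208 lower (2.89%), 7.16% in either direction. The median log2 change over all 7191 genes was -0.08, and 5137 genes (71.4%) stayed within 2-fold. At a limit of 2-fold, 1000 genes were higher (13.9%) and 1054 lower (14.7%). The share called varied with the level, and counting error is largest for scarce genes. With a mean under 20 RPM, 8.08% of genes were called higher and 5.03% lower, against 2.63% and 1.32% between 200 and 1000 RPM. Above 1000 RPM 9 of 136 genes were called higher (6.62%) and 2 lower (1.47%). Of the higher genes 216 reached 10 RPM only at 24 h, and of the lower genes 134 only in bFF, so these passed the filter through the library in which they are high. The genes nearest the limit had a log2 change of 2.004 inside and 1.998 outside the higher call, and -2.006 and -1.998 for the lower call.

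**Figure D1:**
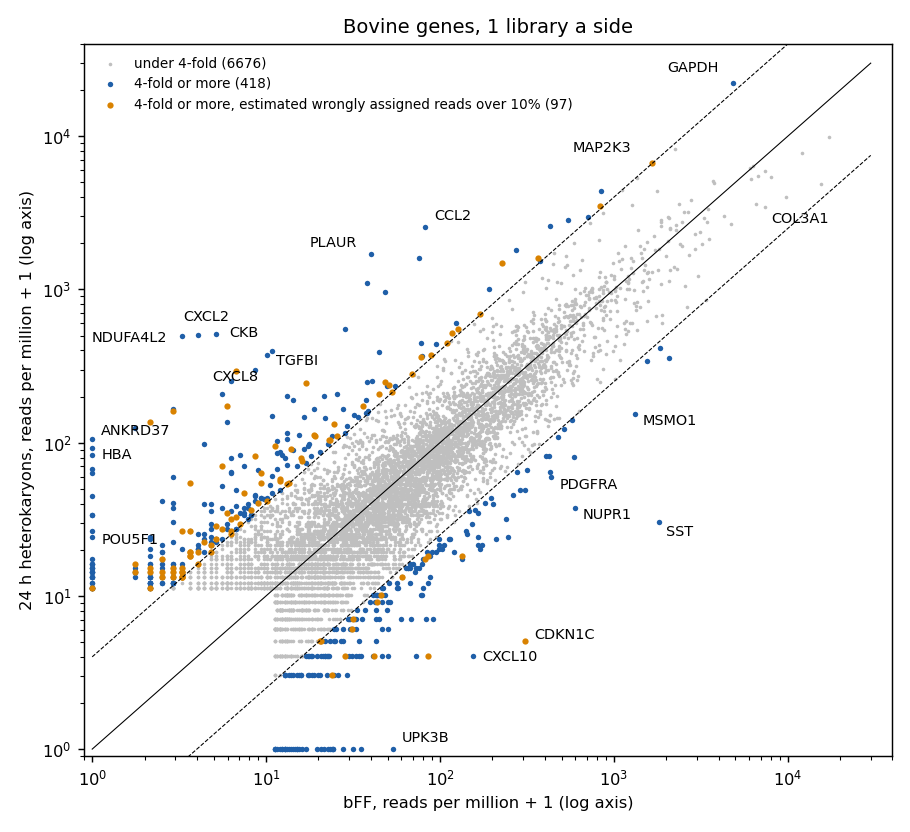
Levels of 7191 bovine genes in bFF (horizontal) and 24 h heterokaryons (vertical), both as RPM + 1 on log axes, 1 point a gene; the solid line marks equal levels and the dashed lines 4-fold. Most genes lie between the dashed lines, and the 515 called genes are blue, or orange where estimated wrongly assigned mouse reads exceed 10% of the 24 h reads.

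Mouse reads listed as bovine bear on these calls. The mESC library, which holds no bovine cells, had 61069 reads listed as bovine, 1.74% of its total. Scaled to the 2427089 mouse reads of the 24 h library, 43006 bovine reads (4.38%) would be mouse reads, if every mouse gene had kept its mESC level. The estimate exceeded 10% of the 24 h reads in 653 genes (9.08%), among them 82 of the 307 higher genes (26.7%) and 15 of the 208 lower genes (7.21%). It exceeded 50% in 29 of the higher genes. MAP2K3, which encodes a kinase upstream of p38, had 4379 reads in bFF and 6602 at 24 h (4.04-fold in RPM), but also 5102 reads in mESC, which would supply 54.4% of the 24 h reads. FGB, the fibrinogen beta chain gene, had 3 reads in bFF, 134 at 24 h and 131 in mESC, and SPEF1, which encodes a protein of motile cilia, had 5, 158 and 113. Mouse reads would supply 68.8% and 50.4% of the 24 h reads of these genes, both among the 12 highest. Shares are given below wherever they exceed 10%.

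**Figure D2:**
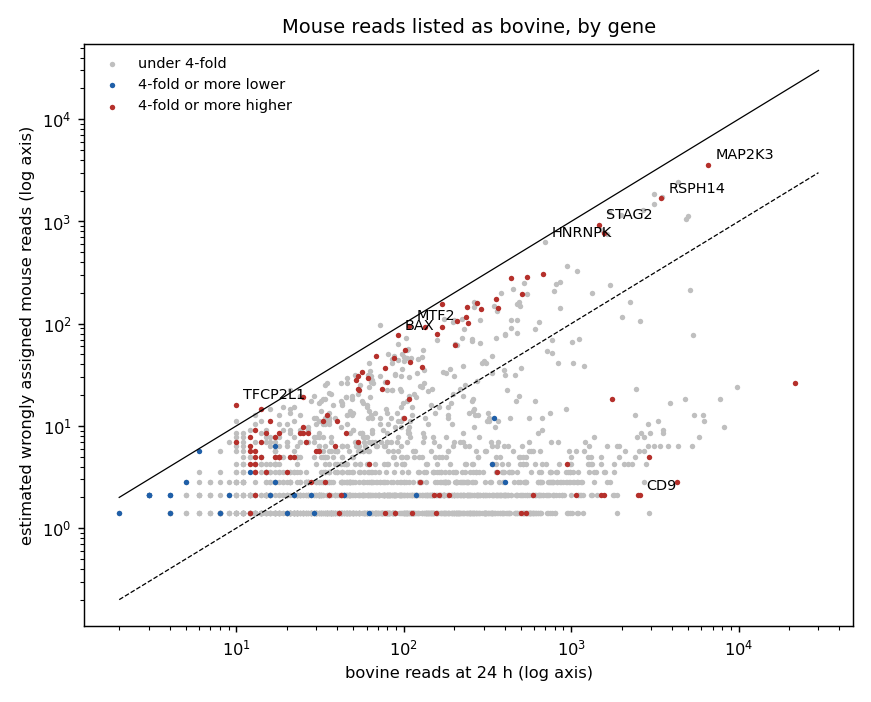
Estimated wrongly assigned mouse reads (vertical) against bovine reads at 24 h (horizontal), log axes, 1 point for each compared gene with reads at 24 h and in mESC. On the solid line all reads of a gene would be mouse reads, as nearly for BAX, MTF2 and HNRNPK, and under the dashed line the share is below 10%, as for CD9.

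Of 34 pluripotency genes 23 were listed, 11 had reads and 6 were compared, of which 4 were called higher and 0 lower (median log2 2.44, against -0.08 for all genes). POU5F1, the gene of OCT4, had 0 reads in bFF and 23 at 24 h, followed by 3 at 48 h and 6 at 72 h. Its 24 h level of 23.4 RPM (14.8 to 35.1) was at least 20.6-fold the floor of 3 reads in bFF (1.14 RPM), and the mESC library, whose stem cells express the mouse gene strongly, had 0 reads listed under it. SOX2 had 0 reads in all 4 libraries and NANOG 2 reads in bFF and 0 after fusion, with upper limits of 3.75 RPM at 24 h, so neither was detectable at this depth. CD9, a membrane tetraspanin of stem cells and of many other cells, stood at 429 RPM in bFF and 2605 at 24 h, 6.07-fold higher (5.66 to 6.52), and at 1233 and 1119 RPM at 48 and 72 h. The other called members were TDH, the threonine dehydrogenase gene, and TFCP2L1, a naive-state factor gene, for which mouse reads would supply 60.4% and 162% of the 24 h reads. KLF4 was 1.51-fold higher (1.13 to 2.00), with 28.2% of its reads open to wrong assignment, and KLF5 was 1.30-fold lower (0.789 to 2.22). Of the 4 called genes, POU5F1 and TFCP2L1 reached 10 RPM only at 24 h. With the estimated mouse reads subtracted, 2 of 5 compared genes were called and the median log2 change was 1.04. Leukaemia inhibitory factor was in the medium of the heterokaryons and not in that of bFF. Of 11 compared genes of STAT3 signalling and related receptors, 0 were called in either direction (median -0.42), against 7.16% of all genes. STAT3 itself stood at 53.5 RPM in bFF and 39.7 at 24 h. LIFR, the receptor gene, and SOCS3, CISH, PIM1 and BCL6 of the same list did not reach the filter, so a response in them cannot be judged.

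Many glycolysis genes were higher at 24 h, and several are among the most abundant bovine transcripts. Of 26 compared genes of glycolysis and of glucose and lactate transport, 11 were called higher and 0 lower, and 19 were at least 2-fold higher (median log2 1.90, against -0.08). Together the listed members took 1.31% of bovine reads in bFF, 5.32% at 24 h, 5.84% at 48 h and 6.20% at 72 h. Of the transporters that open the pathway, the glucose transporter gene SLC2A1 stood at 4.94 RPM in bFF and 135 at 24 h, 27.4-fold higher (15.5 to 52.9), and SLC2A3 at 27.3 and 551 RPM, 20.1-fold higher (15.7 to 26.1). Both transporters stayed high later, with 134 and 158 RPM for SLC2A1 and 794 and 909 RPM for SLC2A3 at 48 and 72 h. PFKFB3, which makes the activator of phosphofructokinase, had 0 reads in bFF and 32 at 24 h, at least 28.6-fold higher. PFKL, a phosphofructokinase subunit gene, stood at 17.8 RPM (13.1 to 23.7) in bFF and 164 (139 to 191) at 24 h, 9.18-fold higher.

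The enzymes of the pathway itself included genes with very many reads. ALDOA, the aldolase gene, stood at 844 RPM in bFF and 4379 at 24 h, 5.19-fold higher (4.93 to 5.46). GAPDH, often taken as a constant reference, stood at 4817 RPM in bFF and 22151 at 24 h, 4.60-fold higher (4.50 to 4.70), and had the most reads of any bovine gene at 24 h. PGK1 was 6.59-fold higher (6.04 to 7.20), PGAM1 5.24-fold (4.91 to 5.59) and GPI 5.24-fold (4.70 to 5.84). ENO1 and LDHA, the genes of enolase and of the lactate dehydrogenase A subunit, were just short of the call at 3.95-fold (3.79 to 4.13) and 3.70-fold (3.58 to 3.83). Of the 26 compared genes 3 were below 0, named here after their values were seen. LDHB, the other lactate dehydrogenase subunit gene, stood at 866 RPM in bFF and 650 at 24 h, 1.33-fold lower (1.22 to 1.46), while the intervals of PGM1, 1.47-fold lower (0.961 to 2.31), and PFKM, 1.02-fold lower (0.553 to 1.98), include no difference. At the exit, the lactate exporter gene SLC16A3 had 0 reads in bFF and 43, 52 and 77 at 24, 48 and 72 h, at least 38.4-fold higher at 24 h. The mouse genes of the same enzymes had many reads in the same cells, but at most 1.04% of the 24 h reads of each glycolysis gene named here would be wrongly assigned.

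Genes outside glycolysis that answer to low oxygen were high as well. Of 28 compared, 11 were called higher and 0 lower, with 19 at least 2-fold higher and 1 at least 2-fold lower (median 1.67). NDUFA4L2, a mitochondrial protein gene and HIF1 target, had the largest change of all genes with 50 RPM or more in either library. It stood at 2.28 RPM in bFF (0.836 to 4.96) and 494 at 24 h (451 to 539), 217-fold higher (98.8 to 593), and at 1110 and 1064 RPM at 48 and 72 h. ANKRD37, another HIF1 target, had 0 reads in bFF and 103 at 24 h, at least 92.0-fold higher. Neither is open to wrong assignment by the estimate, since mESC had 155 and 92 mouse reads of these genes and 0 listed as bovine. BNIP3, which directs the removal of mitochondria, was 20.3-fold higher (16.8 to 24.6), with 47.5 RPM in bFF and 962 at 24 h. DDIT4, an inhibitor of the growth kinase mTOR, was 9.83-fold higher (7.24 to 13.5), and ERO1A, an oxidase of the endoplasmic reticulum, 8.97-fold higher (7.27 to 11.2). The list did not move as a block. BNIP3L, a close relative of BNIP3, stood at 417 RPM in bFF and 298 at 24 h, 1.40-fold lower, and the prolyl hydroxylase subunit gene P4HA2 was 1.08-fold higher (0.963 to 1.21). HIF1A, chosen after its value was seen, was 1.28-fold lower (1.04 to 1.60) at the transcript level. Both cultures were kept in air with CO2, oxygen in the medium is not given in the sources used here, and its part in these values was not tested.

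**Figure D3:**
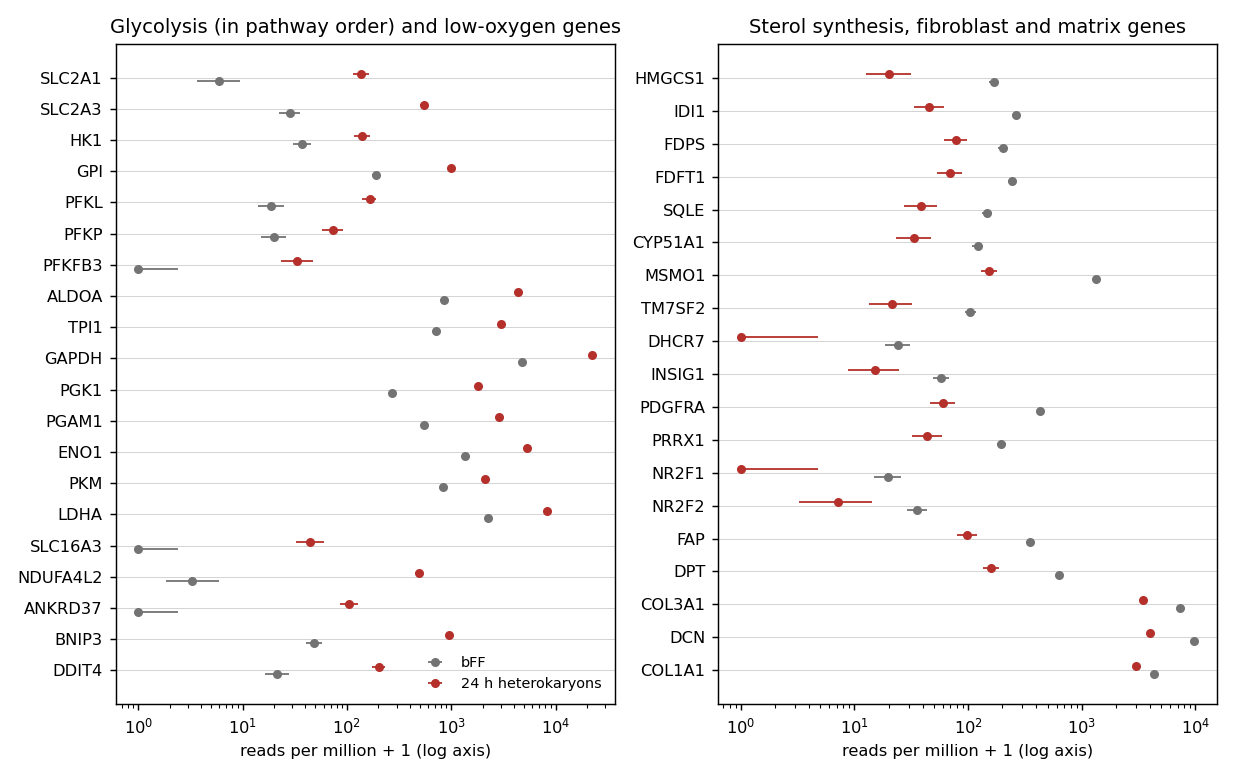
RPM + 1 (log axes) of 20 glycolysis and low-oxygen genes (left, glycolysis in pathway order from glucose uptake to lactate export) and 19 sterol synthesis, fibroblast and matrix genes (right); grey points are bFF, red points 24 h heterokaryons, bars exact 95% Poisson intervals. The genes were selected from their lists, and red lies right of grey for those on the left and left of grey for those on the right. Compared members on the other side of 0 are not drawn. These are 3 of glycolysis, 4 of the low-oxygen response, 2 of sterol synthesis and uptake and 4 of fibroblast identity. They also include 9 genes of collagens and their processing enzymes and 10 other matrix genes.

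The inflammatory genes split by the chemokine. Of 22 compared chemokine and cytokine genes, 11 were called higher and 4 lower (median 1.79), and the summed level of the list was 1372 RPM in bFF, 6193 at 24 h, 1923 at 48 h and 1352 at 72 h. The higher genes included chemokines that attract neutrophils and monocytes, which are targets of NF-kB. CXCL2 stood at 3.04 RPM in bFF and at 502, 34.5 and 50.6 RPM at 24, 48 and 72 h, 165-fold higher at 24 h (83.2 to 385). CXCL8, the gene of interleukin 8, stood at 4.56, 208, 5.26 and 6.49 RPM in the same order, 45.6-fold higher at 24 h (25.5 to 89.6). Its 24 h value lay above those of the other 3 libraries, whose intervals overlap. CXCL3 had 9.87, 398, 119 and 124 RPM. CCL2, the monocyte chemokine gene with the most reads, stood at 81.2 RPM in bFF, 2541 at 24 h, 392 at 48 h and 7.78 at 72 h, 31.3-fold higher at 24 h (27.2 to 36.1). For CCL2 the 72 h level was thus below that of bFF. The cytokine IL6 was 28.6-fold higher at 24 h (14.4 to 64.4) and, unlike these chemokines, stood highest at 72 h with 135 RPM against 97.7 at 24 h. PTGS2, the inducible cyclooxygenase gene, was 14.2-fold higher (9.83 to 21.0), and NFKBIA, the inhibitor that NF-kB itself induces, stood at 37.2 RPM in bFF and 246 at 24 h. Mouse Cxcl2 had 0 reads in mESC and at 24 h.

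Chemokines that answer to interferon or mark the resting stroma stood on the other side. CXCL10, which attracts T cells and is induced by interferon, stood at 155 RPM in bFF (140 to 170) and 3.05 at 24 h (0.630 to 8.92), from 407 and 3 reads, 50.6-fold lower (17.2 to 246), with 0 and 3 reads at 48 and 72 h. CXCL9, of the same kind, had 57 reads in bFF and 0 in each heterokaryon library, at least 7.09-fold lower at 24 h. CXCL12, a stromal chemokine that retains blood stem cells, was 5.22-fold lower (3.04 to 9.73), and IL7, a lymphocyte growth factor, had 27 reads in bFF and 0 at all 3 later times. On chromosome 6 of bosTau8 the higher CXC genes lie together, and CXCL9 and CXCL10 lie in a separate group further along. CXCL8 starts at 90559882, CXCL5 at 90645964, CXCL2 at 90695494, CXCL3 at 90811062 and GRO1 at 90822748, all 4-fold or more higher, while CXCL9 at 92600177 and CXCL10 at 92623585 were lower. GRO1, named for its position, was 38.9-fold higher (24.7 to 64.6). CXCL2, CXCL3 and GRO1 are close copies, so reads may be split between them in an unknown way.

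The interferon response list went the way of CXCL10. Of 26 compared genes, 0 were called higher and 5 lower (median -0.85), and 11 were at least 2-fold lower against 1 at least 2-fold higher. Since 11 of the 26 reached 10 RPM only in bFF and 2 only at 24 h, these counts depend on the filter. With a filter of 50 RPM 7 genes were left, of which 1 was called lower and 0 higher (median -0.75). IFIT3, an antiviral protein gene, was 16.2-fold lower (5.41 to 79.4) with 130 reads in bFF and 3 at 24 h, and IRF9, part of the transcription factor that interferon activates, 13.2-fold lower (4.39 to 64.9) with 106 and 3. OAS1Y, an antiviral enzyme gene, had 60 reads and 0, and SAMD9, an antiviral factor, 36 and 0. B2M, the light chain of class I histocompatibility molecules, was 1.61-fold lower (1.53 to 1.70). An exception outside the list was BLA-DQB (current symbol BOLA-DQB1), a class II histocompatibility gene and 1 of the 12 highest genes, which had 2 reads in bFF and 122, 124 and 239 in heterokaryons, 164-fold at 24 h (44.3 to 1365). Another, chosen after its value was seen, was ISG12(B), named as an interferon-stimulated gene, with 5.31 RPM in bFF and 252 at 24 h. Wrong assignment exceeded 10% in 5 compared interferon genes and in 0 of the 5 called.

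**Figure D4:**
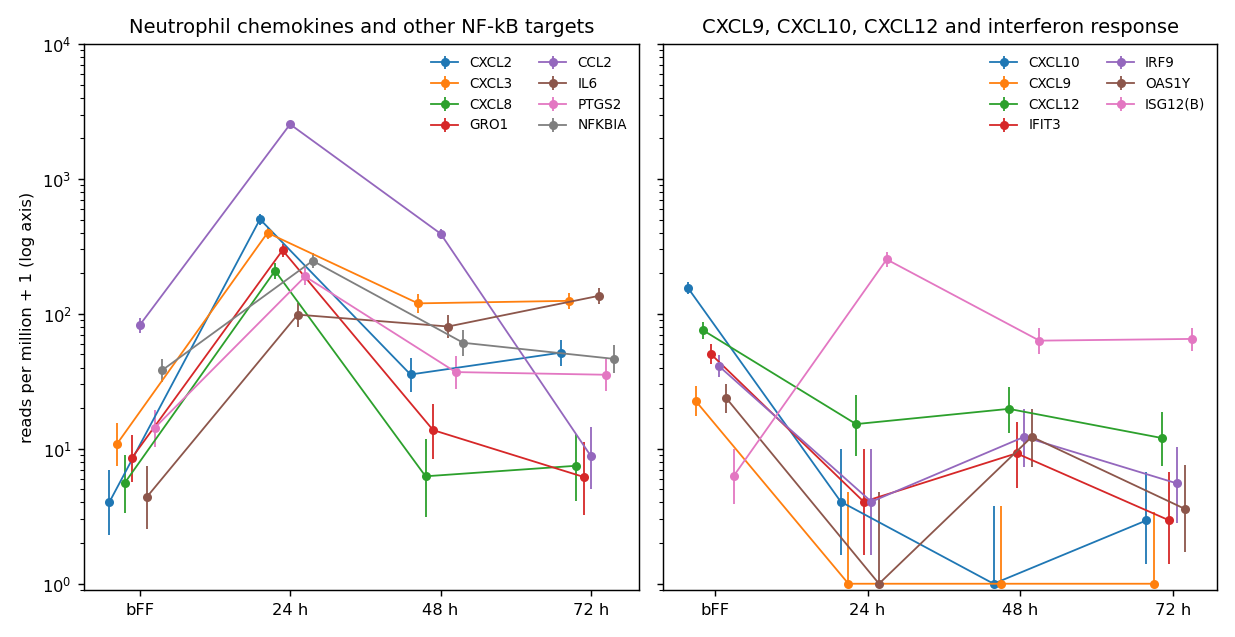
RPM + 1 (log axis) in bFF and in 24, 48 and 72 h heterokaryons for 8 neutrophil and monocyte chemokines and other NF-kB targets (left) and for CXCL9, CXCL10, CXCL12 and interferon response genes (right), with exact 95% Poisson intervals, 1 library a point. On the left every gene stands higher at 24 h than in bFF, and on the right all but ISG12(B) stand lower.

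Genes of the dividing cell were higher, at modest levels. In the S phase list 14 of 43 compared genes were called higher and 0 lower (median 1.48). MCM5 and MCM4, subunits of the replication helicase, were 14.7-fold (8.28 to 28.2) and 11.2-fold higher (5.86 to 23.0), with 5.31 and 78.4 RPM for MCM5 and 4.56 and 50.9 RPM for MCM4. RRM2, the regulated subunit of ribonucleotide reductase, was 8.41-fold higher (6.33 to 11.3) and TK1, thymidine kinase, 7.69-fold (5.27 to 11.4). The S phase genes with most reads were nearer to bFF. PCNA, the polymerase clamp, stood at 137 and 298 RPM, 2.17-fold higher (1.85 to 2.54), and RPA1, which coats single-stranded DNA, was 1.43-fold lower (1.19 to 1.74). In the mitosis list 12 of 48 compared genes were called higher and 0 lower, but 38 were at least 2-fold higher and 47 above 0 (median 1.49). KIF4A, a chromosome motor gene, was 9.57-fold higher (4.03 to 26.2), BUB1, a checkpoint kinase gene, 6.51-fold (3.40 to 13.1), and MAD2L1, another checkpoint gene, 4.80-fold (3.85 to 6.00). For KIF2C and BIRC5, also called, 18.8% and 11.9% of the reads could be mouse reads. Since 17 of the S phase and 15 of the mitosis genes reached 10 RPM only at 24 h, their number depends on the filter. With a filter of 50 RPM 5 of 20 were called in each of the 2 lists. With a pseudocount of 5 RPM the calls were 4 of 43 in S phase and 3 of 48 in mitosis, and at a limit of 8-fold 4 and 0.

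A separate list of CDK inhibitors, D-type cyclins, their kinases and RB family genes did not follow these lists. It leaves out regulators counted above, such as CDK1, CCNA2, CCNB1 and PLK1 among the mitosis genes and CCNE2 among the S phase genes. Of its 16 compared genes, 0 were called higher and 1 lower (median -0.16). The lower gene was CDKN1C, an imprinted CDK inhibitor gene. It had 814 reads in bFF and 4, 4 and 3 in heterokaryons, 309 RPM against 4.07 at 24 h, 75.9-fold lower (29.5 to 279), and 52.8% of the few reads left could be mouse reads. CDKN1A, the p21 gene, stood at 110 and 105 RPM, and CCND1, cyclin D1, at 123 and 201 RPM. Nucleotide supply genes were partly higher, with 5 of 23 compared called higher and 0 lower (median 0.67). UPP1, uridine phosphorylase, stood at 1.90 RPM in bFF and 164 at 24 h, 86.3-fold higher (36.2 to 269), and mESC, with 3344 mouse reads of the gene, had 0 listed as bovine.

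Cholesterol synthesis was the list with the lowest median among those with 10 or more compared genes, -1.55. Of its 27 compared genes 0 were called higher and 5 lower, and 17 were at least 2-fold lower and 0 higher. The summed level of the list was 3759 RPM in bFF and 1018 at 24 h, 912 at 48 h and 1006 at 72 h. Near the start of the pathway HMGCS1, HMG-CoA synthase, stood at 168 RPM in bFF and 19.3 at 24 h, 8.70-fold lower (5.50 to 14.6). IDI1, which makes the isoprenoid unit used next, stood at 261 and 44.8 RPM, 5.83-fold lower (4.30 to 8.10). FDFT1, squalene synthase, was 3.56-fold lower (2.76 to 4.65) and so under the call, as was SQLE, squalene epoxidase, at 3.86-fold (2.75 to 5.57), which was chosen after its value was seen. Late in the pathway MSMO1, a sterol demethylation enzyme and the member with most reads, stood at 1324 RPM in bFF and 153 at 24 h, 8.67-fold lower (7.36 to 10.3). DHCR7, which makes cholesterol in the last step, had 61 reads in bFF and 0 at 24 h, at least 7.59-fold lower. The serum in the medium differed between the libraries, 10% for bFF and 15% for heterokaryons, and its part in these values was not tested.

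Most fibroblast identity and matrix genes stood lower. Most of both stayed within 4-fold, as did most of all genes, of which 7.16% were called in either direction. Below 0 were 20 of 24 compared identity genes, 13 of 22 genes of collagens and their processing enzymes and 22 of 32 other matrix genes. Of 24 compared identity genes 0 were called higher and 5 lower (20.8%, against 2.89% of all genes). At least 2-fold lower were 13, and 0 were 2-fold higher (median -1.20). With a filter of 50 RPM 15 identity genes were left, of which 3 were called lower and 0 higher. PDGFRA, the platelet-derived growth factor receptor gene of mesenchymal cells, stood at 433 RPM in bFF and 59.0 at 24 h, 7.33-fold lower (5.63 to 9.72), and stayed at 67.6 and 67.5 RPM at 48 and 72 h. PRRX1, a mesenchymal homeobox gene, was 4.57-fold lower (3.33 to 6.41). The nuclear receptor genes NR2F1 and NR2F2 had 49 and 91 reads in bFF and 0 and 6 at 24 h. TWIST1, a mesenchymal transcription factor gene, was lower by less, 1.59-fold (1.26 to 2.03), as was VIM, the vimentin gene, 1.78-fold (1.71 to 1.86). The other end of the list, named here after its values were seen, was 4 genes above 0. SNAI2, another mesenchymal transcription factor gene, stood at 349 RPM in bFF and 481 at 24 h, 1.38-fold higher (1.23 to 1.54), and CDH2, the N-cadherin gene, was 1.57-fold higher (1.06 to 2.29). The intervals of ZEB2, 1.79-fold higher (0.840 to 3.68), and NT5E, 1.07-fold higher (0.762 to 1.49), include no difference.

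Among 22 compared collagens and their processing enzymes 0 were called in either direction (median -0.07). COL3A1 was 2.13-fold lower (2.05 to 2.21), COL1A2 1.84-fold (1.77 to 1.91) and COL1A1 1.43-fold (1.38 to 1.49). Of 32 other matrix genes 2 were called higher and 2 lower (median -0.78). ASPN, a small proteoglycan gene, was 5.87-fold lower (5.27 to 6.56) and THBS1, thrombospondin 1, 6.77-fold (5.24 to 8.89), while SPARC, the gene with most reads in bFF, was 1.74-fold lower (1.70 to 1.78). Against them stood TGFBI, an adhesion protein gene induced by TGF-beta, at 9.11 RPM in bFF and 375 at 24 h, 41.1-fold higher (27.2 to 65.0), and FBN2, fibrillin 2, 4.93-fold higher (3.25 to 7.56).

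The contractile list held 3 called lower and 0 called higher of 30 compared (median -0.39). ACTC1, cardiac actin, had 190 reads in bFF and 3 at 24 h, 23.6-fold lower (7.96 to 116). ACTA2, smooth muscle actin, stood at 1833 RPM in bFF and at 412, 2102 and 3041 RPM at 24, 48 and 72 h, and was 4.45-fold lower at 24 h (4.02 to 4.94). TPM2, a tropomyosin, was 4.52-fold lower at 24 h (4.04 to 5.06), whereas ACTB, cytoplasmic actin, was 1.04-fold higher (1.00 to 1.07). For ACTA2 the 24 h library was thus the lowest of the 4. Among 19 compared adhesion genes 3 were called higher and 1 lower (median -0.39). DSG2, a desmosomal cadherin gene, was 8.17-fold higher (4.92 to 14.1), and the tight junction genes CLDN6 and CLDN1 stood on opposite sides, with 8 and 24 reads for CLDN6 and 59 and 0 for CLDN1.

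The urokinase receptor gene was among the more abundant genes that were higher. In 15 compared genes of plasminogen activation and matrix proteolysis 3 were called higher and 0 lower (median 0.72). PLAUR, the urokinase receptor gene, stood at 39.1 RPM in bFF and 1698 at 24 h, 43.4-fold higher (35.6 to 53.5). It stayed high, with 1776 reads at 48 h and 2018 at 72 h. ADAMTS4, a matrix protease gene and also called, had 10 and 20 reads, with 17.6% of the latter open to wrong assignment. CTSK, a collagen-degrading cathepsin of fibroblasts, was 2.61-fold lower (2.40 to 2.83).

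In the TGF-beta and BMP list 4 of 24 compared genes were called higher and 1 lower (median 0.37). The ligand genes INHBA and TGFB3 were 14.9-fold (9.80 to 23.7) and 7.76-fold higher (5.04 to 12.3). The BMP target ID1 was 5.85-fold higher (4.94 to 6.95) while its relatives ID2 and ID3 stood at 0.992-fold (0.880 to 1.12) and 1.47-fold (1.31 to 1.65). FST, the activin-binding protein follistatin, was 6.53-fold lower (4.06 to 11.2). Of 9 compared WNT targets 2 were called higher and 1 lower (median -0.22). Here 2 of the 9 reached 10 RPM only at 24 h and 1 only in bFF. With a filter of 50 RPM 6 genes were left, of which 1 was called higher and 0 lower (median 0.18). TCF7, a factor that acts with beta-catenin, had 0 reads in bFF and 65 at 24 h, at least 58.1-fold higher, AXIN2 had 5 and 11 reads, and SFRP1, a secreted WNT inhibitor, was 5.92-fold lower (2.78 to 15.1).

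Of 13 compared ERK feedback genes 4 were called higher and 1 lower (median 0.70). Since 4 of the 13 reached 10 RPM only at 24 h and 2 only in bFF, these counts depend on the filter. With a filter of 50 RPM 6 genes were left, of which 1 was called higher and 0 lower (median -0.20). IER3, a survival gene that ERK and NF-kB both induce, stood at 75.2 and 1605 RPM, 21.3-fold higher (18.4 to 24.9), DUSP5, an ERK phosphatase gene, had 0 and 15 reads, and EGR1, an early ERK target, was 2.72-fold lower (1.91 to 3.96). The wider immediate-early list held 2 called higher of 20 (10%, against 4.27% of all genes, median 0.07). FOS, its best known member, was 1.52-fold lower (1.38 to 1.67).

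Growth factor genes went both ways. Of 26 compared secreted factors 4 were called higher and 6 lower (median -0.81). SST, somatostatin, stood at 1811 RPM in bFF and 29.5 at 24 h, 61.4-fold lower (42.7 to 91.7). FGF7 and FGF10, which stromal cells supply to epithelia, had 1558 and 70 reads in bFF and 78 and 0 at 24 h, 7.45-fold (5.93 to 9.48) and at least 8.70-fold lower. STC1, stanniocalcin, and PGF, placental growth factor, had 0 reads in bFF and 16 and 12 at 24 h. AREG, amphiregulin, was called higher with 52.0% of its reads open to wrong assignment. Of 16 compared imprinted genes 3 were called lower and 0 higher (median -0.84). Besides CDKN1C these were MEST, 5.25-fold lower (4.18 to 6.68), and SGCE, 4.40-fold (3.40 to 5.80). H19 and IGF2 were 1.93-fold (1.67 to 2.23) and 1.61-fold lower (1.49 to 1.74). Their 24 h levels of 237 and 813 RPM lay above those of 48 and 72 h, since H19 had 233, 50 and 7 reads at the 3 times and IGF2 799, 390 and 209.

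Stress genes showed no common direction. In the amino acid stress list 1 of 34 compared genes was called higher (2.94%) and 3 lower (8.82%, median -0.53). Over all genes the shares were 4.27% and 2.89%. NUPR1, a stress-induced chromatin protein gene, stood at 597 RPM in bFF and 36.6 at 24 h, 16.3-fold lower (11.7 to 23.4), and ALDH1L2, a mitochondrial folate enzyme gene, was 6.02-fold lower (4.48 to 8.26), while ATF4, which drives this response, was 1.61-fold lower (1.46 to 1.77). Of 26 unfolded protein genes 0 were called, 9 were at least 2-fold higher and 1 lower (median 0.54), with the chaperone gene HSPA5 1.30-fold higher (1.24 to 1.37). Against 4.27% of all genes, 2 of 36 heat shock and chaperonin genes were called higher (5.56%, median 0.41). These were CRYAB, a small heat shock protein gene, 8.40-fold higher (4.61 to 16.2), and RBM3, a gene known to rise when cells are cooled, which stood at 94.1 and 441 RPM, 4.68-fold higher (3.99 to 5.49), in cells kept at 37 °C beside a control at 38.5 °C. The part of temperature in the RBM3 value was not tested. CIRBP, the cold-inducible RNA-binding protein gene of the same list, was compared and not called. FTH1, the ferritin heavy chain, stood at 15592 RPM in bFF and 4899 at 24 h, 3.18-fold lower (3.09 to 3.28), whereas the light chain FTL was 1.25-fold lower (1.21 to 1.29). MGST1, a membrane glutathione transferase, was 10.4-fold lower (6.90 to 16.6), and MT2A, a metallothionein, 5.80-fold higher (4.00 to 8.53). Of 22 p53 targets 3 were called higher, and of these BAX, a cell death effector gene, had 84.2% of its reads open to wrong assignment. GADD45B, a stress gene without this doubt, was 7.24-fold higher (4.71 to 11.4).

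Genes that every cell uses were close to bFF. Of 79 compared cytosolic ribosomal protein genes, 79 nuclear genes of the respiratory chain and 38 proteasome genes, 0 were called in either direction, with medians of 0.23, 0.17 and 0.21. RPLP0 was 1.16-fold higher (1.11 to 1.21), ATP5B 1.16-fold (1.07 to 1.25) and PSMA7 1.20-fold (1.11 to 1.31). RPL9 stood out at 2.83-fold (2.70 to 2.97), with 49.2% of its reads open to wrong assignment. Of 37 nuclear transport genes and 40 lysosome genes 0 were called, with medians of 0.23 and -0.39, though 10 of the lysosome genes were at least 2-fold lower and 1 higher. Histone modifier, remodeler and histone chaperone genes were called about as often as all genes, of which 4.27% were higher and 2.89% lower. Of 29 histone modifier genes 1 was called higher (3.45%), MTF2, in which mouse reads would supply 88.7%. Another was called lower (3.45%), SIRT1, a deacetylase gene with 84 and 5 reads. Of 39 remodeler and histone chaperone genes 1 was called higher (2.56%), the linker histone gene H1F0, 5.76-fold (3.32 to 10.3). The ATPase gene SMARCA2 was the 1 called lower (2.56%), 7.09-fold (3.98 to 13.9). In the DNA methylation list 3 of 10 were called higher (median 0.76), 1 of them with over 10% of its reads open to wrong assignment. Also called were GADD45B, the stress gene given above, and UHRF1, which brings the methylase to newly copied DNA, with 9 and 24 reads. With genes over 10% left out, 2 of 8 were called and the median was 0.22. The methylase gene DNMT1 was 2.25-fold higher (1.79 to 2.83).

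**Figure D5:**
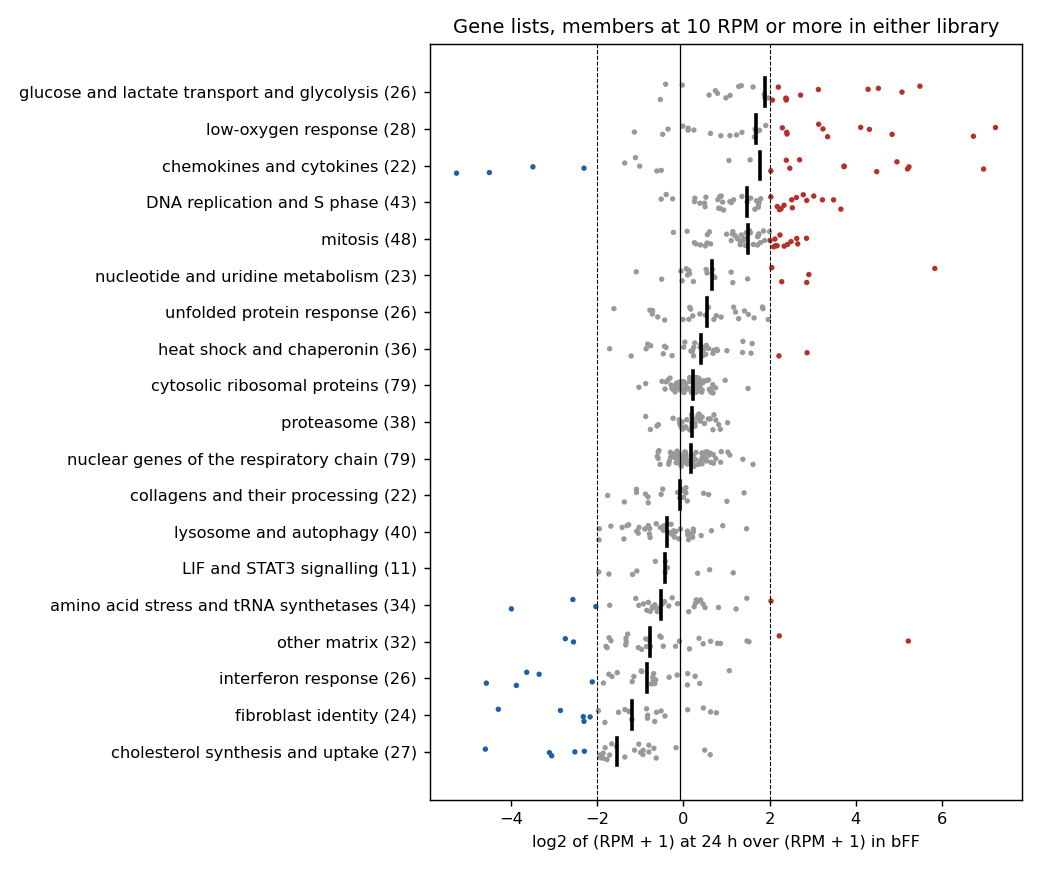
Log2 of (RPM + 1) at 24 h over (RPM + 1) in bFF for the compared members of 19 gene lists (number of members in brackets), 1 point a gene; black bars are list medians, the solid vertical line the median of all genes and dashed lines the 4-fold limits. Glycolysis, low-oxygen, chemokine and cell cycle lists reach past the right limit, sterol, fibroblast identity and interferon lists past the left one, and ribosomal, proteasome and respiratory chain lists stay inside both.

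Markers of other cell types differed by type. At 24 h reads were found for 1 of 6 blood, 3 of 6 endothelial, 5 of 6 epithelial, 3 of 6 muscle and 4 of 5 listed neural markers. In the wider lists, 3 of 8 compared epithelial and keratin genes were called higher and 1 lower. Of those called higher, 1 had over 10% of its reads open to wrong assignment. Among 4 compared neural genes 2 were called higher and 1 lower. In these 2 lists 3 and 2 genes reached 10 RPM only at 24 h, so the higher counts depend on the filter. With a filter of 50 RPM 3 epithelial and keratin genes and 2 neural genes were left. Of these 0 were called higher and 1 lower in each list. Of 6 blood markers HBA, alpha globin, had 0 reads in bFF and 90, 89 and 75 in heterokaryons, at least 80.4-fold higher at 24 h, while HBB, HBG, PTPRC and CD68 were among those at 0 at 24 h. Of 6 endothelial markers CDH5, KDR and VWF were at 0 at 24 h, and PECAM1 had 3 and 12 reads, 10.7-fold higher (2.89 to 59.2). The summed level of 6 epithelial markers was 3046 RPM in bFF and 1229 at 24 h. Keratin 8, 18 and 19 genes made up most of it and were already high in bFF. KRT18 was 4.84-fold lower (3.75 to 6.35), KRT8 2.47-fold (2.27 to 2.70) and KRT19 2.31-fold (2.10 to 2.54), against EPCAM, an epithelial adhesion gene, with 3 reads in bFF and 23 at 24 h, 20.6-fold higher (6.21 to 107). Of 6 muscle markers MYOD1, MYOG and DES were at 0 at 24 h, and the summed level was 77.1 and 14.2 RPM. The summed level of 6 neural markers, of which 5 were listed, was 68.3 and 164 RPM, with TUBB3, neuronal tubulin, 4.64-fold higher (2.80 to 7.83) and SOX10 at 0 at 24 h. The part of other cell types in these values was not tested.

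Among the 12 highest genes with 50 RPM or more, those not yet described were CKB, RRAD and PENK. CKB, brain-type creatine kinase, stood at 4.18 RPM in bFF and at 514, 147 and 147 RPM at 24, 48 and 72 h, 123-fold higher at 24 h (68.2 to 248). Mouse reads were a small part of this, since mESC had 6429 mouse reads of the gene and 2 listed as bovine. RRAD, a small GTPase gene, had 0 reads in bFF and 81, 27 and 14 in heterokaryons, at least 72.4-fold higher at 24 h, and PENK, proenkephalin, 0 and 61, 23 and 5, at least 54.5-fold higher. For CKB, RRAD and PENK the 24 h library was the highest of the 4. At the other end were UPK3B, a uroplakin gene of mesothelial and urinary linings, with 139 reads in bFF and 0 at 24 h, at least 17.3-fold lower, and FABP7, a fatty acid binding protein gene, 14.7-fold lower (6.64 to 40.4). OLFML1, an olfactomedin family gene, had 223 and 3 reads, with 70.4% of the latter open to wrong assignment, and LRRC17, a leucine-rich repeat gene, 217 and 6. CH25H, cholesterol 25-hydroxylase, was 11.1-fold lower at 24 h (4.99 to 30.6) and stood at 9.01 and 75.9 RPM at 48 and 72 h, against 67.6 in bFF. ANGPTL1, an angiopoietin-like protein gene, was 9.34-fold lower (6.11 to 15.0) and lower still later, at 3.75 and 3.89 RPM. So CH25H was back near bFF at 72 h and ANGPTL1 was not.

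The mouse genes of the same cells can be set beside the bovine ones, each against its own control. A mouse gene of the same name was listed for 465 of the 515 called bovine genes. Of 8419 mouse genes with 10 RPM or more in mESC or at 24 h, 1.83% were 4-fold or more higher at 24 h and 0.368% lower. Among the called bovine genes, the mouse gene reached 10 RPM for 156 of the higher and 82 of the lower. For the 156 it was 4-fold or more higher in 10 and lower in 1, and for the 82 it was higher in 3 and lower in 1. CCL2 had 0 mouse reads in mESC and 88 at 24 h, IER3 74 and 524, PLAUR 27 and 243, and NDUFA4L2 155 and 478. The mouse log2 changes of IER3, PLAUR and NDUFA4L2 were 3.27, 3.52 and 2.11, beside bovine changes of 4.40, 5.41 and 7.24. The other genes higher in both species were CLDN6, CRYAB, EGLN3, FBXW7, ID1 and TNFSF9, and the one lower in both was KLHL24, with 70.4% of its 3 bovine reads at 24 h open to wrong assignment. In 4 genes the directions were opposite: KRT18, SGCE and TPM2 were lower in bovine and higher in mouse transcripts, and RBAK the reverse. The mESC control differed from the heterokaryons by the 2 inhibitors as well as by fusion.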

How the data were processed

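Per the labels' protocols, each library was made from 200 sorted cells by SMART-Seq v4, with 14 cycles of cDNA amplification. The authors deposited whole read counts for each RefSeq transcript beside RPM values, per the file headers, and recomputing RPM from the deposited counts gave the same numbers. The submitters' processing notes name the builds bosTau8, GRCm38 and mm10. How reads were aligned, counted, kept by strand or split by species is not given in the sources used here. No deposited count equals 1, so a 0 may stand for 1 read. Starts in the files count from 0 and are printed counted from 1.

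Transcripts were summed by gene name (14234 to 13923), and 23 names turned into dates were restored by RefSeq number. Mouse column totals, listed as a row, were dropped. Depth was 2634269 reads for bFF and 982769 at 24 h. Groups hold 1 library each, so no test was run. Differences were log2((RPM 24 h + 1)/(RPM bFF + 1)), called at 4-fold among genes at 10 RPM in either library, with exact Poisson intervals of levels and conditional intervals of ratios. Against 0 reads, folds use a floor of 3 reads and are lower bounds, and no fold is given when both libraries have 3 reads or fewer. Wrong assignment was the mESC reads listed as bovine, scaled by mouse reads. A share can exceed 100% where the mouse gene was lower at 24 h than in mESC, and is too low where it was higher. Values of overlapping genes and of close copies are uncertain. Members and lists were chosen with earlier results of these data known. Named genes were POU5F1, SOX2 and NANOG, the 12 highest and 12 lowest at 50 RPM or more, up to 8 called members and the 4 with most reads of each list, the 8 with most reads in each library, and the 6 with most bovine reads in mESC. Genes called in both species, and others said to be so, were chosen after their values were seen. Alternatives were TMM (edgeR 4.0.16) and DESeq2 1.42.0 scaling in R 4.3.3, totals without the most abundant genes, pseudocounts of 0.5 and 5, other filters and fold limits, transcripts kept apart, and wrong reads subtracted or affected genes left out. Counts and intervals were checked on simulated data that held counting error alone and large planted changes. That check covers neither PCR copies nor spread between libraries. Intervals came from scipy 1.17.1, tables from pandas 2.3.3 and numpy 2.4.6, and figures from matplotlib 3.10.9 (Python 3.11.15). Some genes are not reported here.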

Additional observations from a re-analysis of the deposited data

Results flagged for a closer look

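KRT18, SGCE, TPM2 and RBAK were at least 4-fold different in both species of the 24 h heterokaryons, each against its own unfused control, and in opposite directions. The difference between the species was not tested, since each side has 1 library.

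KRT18, keratin 18, had a log2 change of -2.26 in bovine transcripts (831 reads in bFF and 64 at 24 h) and 3.14 in mouse transcripts (30 reads in mESC and 205 at 24 h). TPM2, a tropomyosin, had -2.17 in bovine (4068 and 336 reads) and 2.45 in mouse transcripts (64 and 258). SGCE, the imprinted epsilon-sarcoglycan gene, had -2.12 in bovine (732 and 62 reads) and 2.12 in mouse transcripts (31 and 103). RBAK, a zinc finger repressor gene, had 2.39 in bovine (4 and 12 reads) and -2.01 in mouse transcripts (39 and 5), so that this pair rests on few reads. For KRT18, TPM2 and SGCE the bFF level was far above the mESC level before fusion, and the 2 controls differed in medium and inhibitors, whose part was not tested.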

How the results depend on the processing

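No paired analysis was possible because each group has 1 library. With 307 genes higher and 208 lower as reported, TMM factors gave 284 and 204, DESeq2 size factors 312 and 205, totals without the most abundant genes 307 and 208, a pseudocount of 0.5 335 and 227, and transcripts kept apart 313 and 215. Subtracting the estimated wrong reads gave 260 and 219, and leaving out genes over 10% gave 225 and 193. Counts moved by over 1.5 times with a pseudocount of 5 (126 and 103), a filter of 50 RPM (127 and 84), no filter (680 and 425), a limit of 2-fold (1000 and 1054) and a limit of 8-fold (97 and 59), as fewer or more genes then pass by construction. Higher genes were 59.6% of the calls and 48.7% at the 2-fold limit. The bovine share of 28.8% became 28.1% with wrong reads moved between species, outside its counting interval. Of 292 named genes, 1 reversed: MTF2, called higher, stood at -0.87 with wrong reads subtracted. Subtraction moved 39 others beyond their intervals and a pseudocount of 5 moved 43. TMM and DESeq2 scaling, totals without the most abundant genes and a pseudocount of 0.5 moved 0. The TMM factors were nearly equal, 1.056 for bFF and 1.057 at 24 h. Other filters, other fold limits and leaving genes out do not change the value of a gene, so they could move none. List medians were the same with genes at 0 reads set to their bound, except for blood (6.53 and 6.33) and muscle markers (-3.67 and -1.95), of which 1 and 3 genes were compared. With 982769 reads at 24 h, a gene needs 3 reads to reach the floor of 3.05 RPM, so absence is not shown for SOX2 or NANOG.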

Other observations

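The genes in this section are in none of the lists and were chosen after their values were seen. Of the 515 called genes, 364 were in no list. MXRA8, a matrix remodelling receptor gene, stood at 237 RPM in bFF and 30.5 at 24 h, 7.77-fold lower (counting interval 5.39 to 11.6). FLRT3, an adhesion and guidance receptor gene, was 8.49-fold lower (5.43 to 14.0), and SLIT2, a guidance ligand gene, 7.15-fold lower (3.19 to 19.9). PTGDS, which makes prostaglandin D2, was 5.60-fold lower (2.75 to 13.3), beside PTGS2 of the same pathway, which was higher. DAB2, an adaptor protein of endocytosis, was 5.06-fold lower (4.03 to 6.45), and IDH1, cytosolic isocitrate dehydrogenase and a source of NADPH, 4.56-fold lower (3.29 to 6.50).

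Among the higher genes outside the lists, NFKBIZ and TNIP1, an NF-kB cofactor and an inhibitor of NF-kB signalling, were 6.66-fold (4.45 to 10.2) and 10.7-fold higher (6.23 to 19.5). Both were highest at 24 h, with 88.5 RPM for NFKBIZ and 69.2 for TNIP1, against 39.8 and 16.5 at 48 h. AK4, a mitochondrial adenylate kinase gene, was 7.95-fold higher (5.12 to 12.7) and ARG2, mitochondrial arginase, 4.77-fold (3.27 to 7.03). WEE1, the kinase that holds cells before mitosis, stood at 20.9 RPM in bFF and 143 at 24 h, 6.87-fold higher (5.00 to 9.56), beside the mitosis genes that were higher too. PLTP, a phospholipid transfer protein gene, and SYNGR2, a vesicle membrane protein gene, were 5.78-fold (3.75 to 9.09) and 5.85-fold higher (4.05 to 8.56) at 24 h. At 48 h they stood at 5.26 and 10.5 RPM, below their bFF levels of 12.1 and 16.7 RPM.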
